A study of Camponotus floridanus with 64 samples.

Results

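The odorant receptors described here are 139 of the 406 identifiers that begin with Cflo_OR in brain RNA tables of the carpenter ant Camponotus floridanus, which list 18130 identifiers in all. They were chosen because their deposited log2 value was 1.5 or more in at least 1 of 31 brain libraries, and Cflo_ORco, the co-receptor, was kept apart. The same values that chose the receptors are described below, so their height alone is not a finding. Of all 18130 identifiers, 12023 (66.3%) passed the same threshold, against 34.2% of the odorant receptors.

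Odorant receptors of insects are ligand-gated ion channels. A tuned receptor, which binds the odour, works together with the co-receptor Orco in the membrane of olfactory sensory neurons. The cell bodies of these neurons lie in the antennae, and their axons end in the antennal lobe of the brain. Ants have a greatly expanded odorant receptor family, and some receptors in other ant species respond to cuticular hydrocarbons, the waxy compounds that ants use to recognise castes and nestmates. The numbered identifiers carry no ligand and no further role in the sources used here, so the receptors are described by number.

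All brains were central brains of adult workers, and all 21 scouts were minors, the smaller worker caste. Scouts were held in nest boxes and given 20% sugar water with 0.5% DMSO, a solvent. In 5 brains (day 78, colonies SB2, SB6 and SB7) DMSO was the only addition, 10 brains (days 68 to 73, colonies SB1, SB2 and SB4) received 50 µM trichostatin A (TSA), which inhibits histone deacetylases, and 6 brains (days 57 to 66, colonies SB1, SB4 and SB6) received TSA with C646, which inhibits the acetyltransferases CBP and p300. C646 was given at 50 µM in 4 of these brains and at 100 µM in 2, libraries 14 and 15. Per the protocols, ants were isolated at 25 to 30 days of age and treated for 45 days, and ages of 57 to 68 days leave less than that if feeding began at isolation. The other 10 libraries came from majors, the large-headed caste, and minors on day 1 of adult life, 5 each, all from colony SB2 and with no drug. Scout libraries were made from 15% of a single brain and passed 1 round of LinDA, a linear amplification, which the descriptions of the day 1 libraries do not name.

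An identifier counts as detected in a library where its value lay above the run of tied values at the bottom of that library. A level is the deposited log2 value with the constant of its library removed and undetected identifiers set to 0. A level of 0 may mean an absent transcript or one that the authors' estimate missed, and the depth of the libraries is unknown. Whether values were divided by transcript length is not given in the sources used here, so levels are compared between libraries and not between receptors. The scout and day 1 tables were normalized separately, and scouts differ from day 1 brains in age and amplification as well. These differences cannot be told apart, so no test crosses the tables. In whole brains, fewer cells that carry a receptor and less RNA per cell cannot be told apart either. Near-identical copies in a multigene family can share reads, so the identity of a single receptor is uncertain where its neighbour moves with it.

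The libraries differed in how much they detected. Scouts given DMSO detected 8283 ± 571 identifiers (SD, n = 5), those given TSA 9459 ± 1533 (n = 10) and those given TSA with C646 8168 ± 2989 (n = 6). TSA+C646 library 15 detected only 2791 identifiers, and none of these values lay between 0 and a level of 1.63. TSA library 10 and TSA+C646 library 16 detected the most, 12328 and 12032, and carried the largest constants, 0.840 and 0.907. Day 1 minors detected 10864 ± 323 identifiers (n = 5) and majors from 5459 to 11768.

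Receptor signal in scout brains was scattered rather than shared. The 139 receptors were detected in 872 of 2919 combinations of receptor and scout brain, which is 29.9%. A receptor was detected in a median of 5 of the 21 scouts, against a median of 16 for the 12023 identifiers past the same threshold. Of all 406 odorant receptors, 33.7% (137) reached the threshold in a scout, against 60.1% of all identifiers. No receptor was detected in all 21 scouts, as 13.4% of those identifiers were. Only 21 receptors (15.1%) were detected in more than 10 of the 21 scouts, against 48% of all 18130 identifiers and 64.9% of those past the threshold. Of the 63 gustatory receptors 3.17% were detected in more than 10 scouts, beside 5.17% of all 406 odorant receptors and 22.6% of 31 ionotropic receptors. None of the 63 or the 31 was detected in all 21 scouts. These shares are descriptions, since the threshold acts on the same values. They are also not matched for level, as scout levels reached 4.13 among the 139 and 15.9 among all identifiers. Of the 139 receptors, 67 (48.2%) reached 1.5 in 1 library and in no other, and 15 reached it in 5 or more. Among all identifiers past the threshold, 21.7% reached it in 1 library only.

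**Figure D1:**
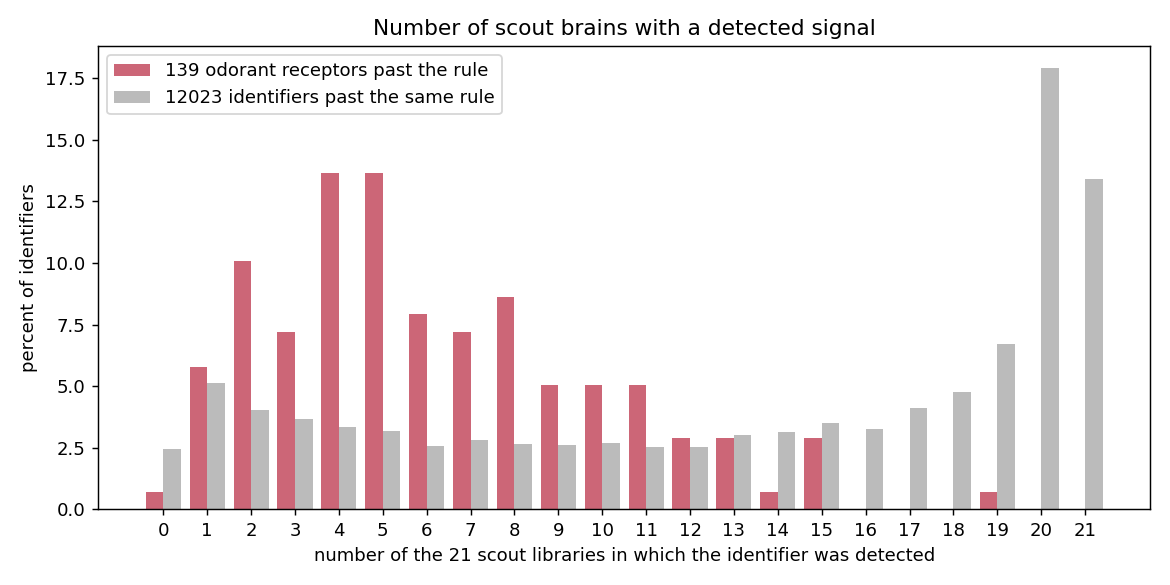
Percent of identifiers (vertical axis) by the number of the 21 scout libraries in which they were detected (horizontal axis), for the 139 odorant receptors (red bars) and the 12023 identifiers past the same threshold (grey bars). The receptors gather at low numbers, with a median of 5, and none stands at 21, while the grey bars have a median of 16.

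**Figure D2:**
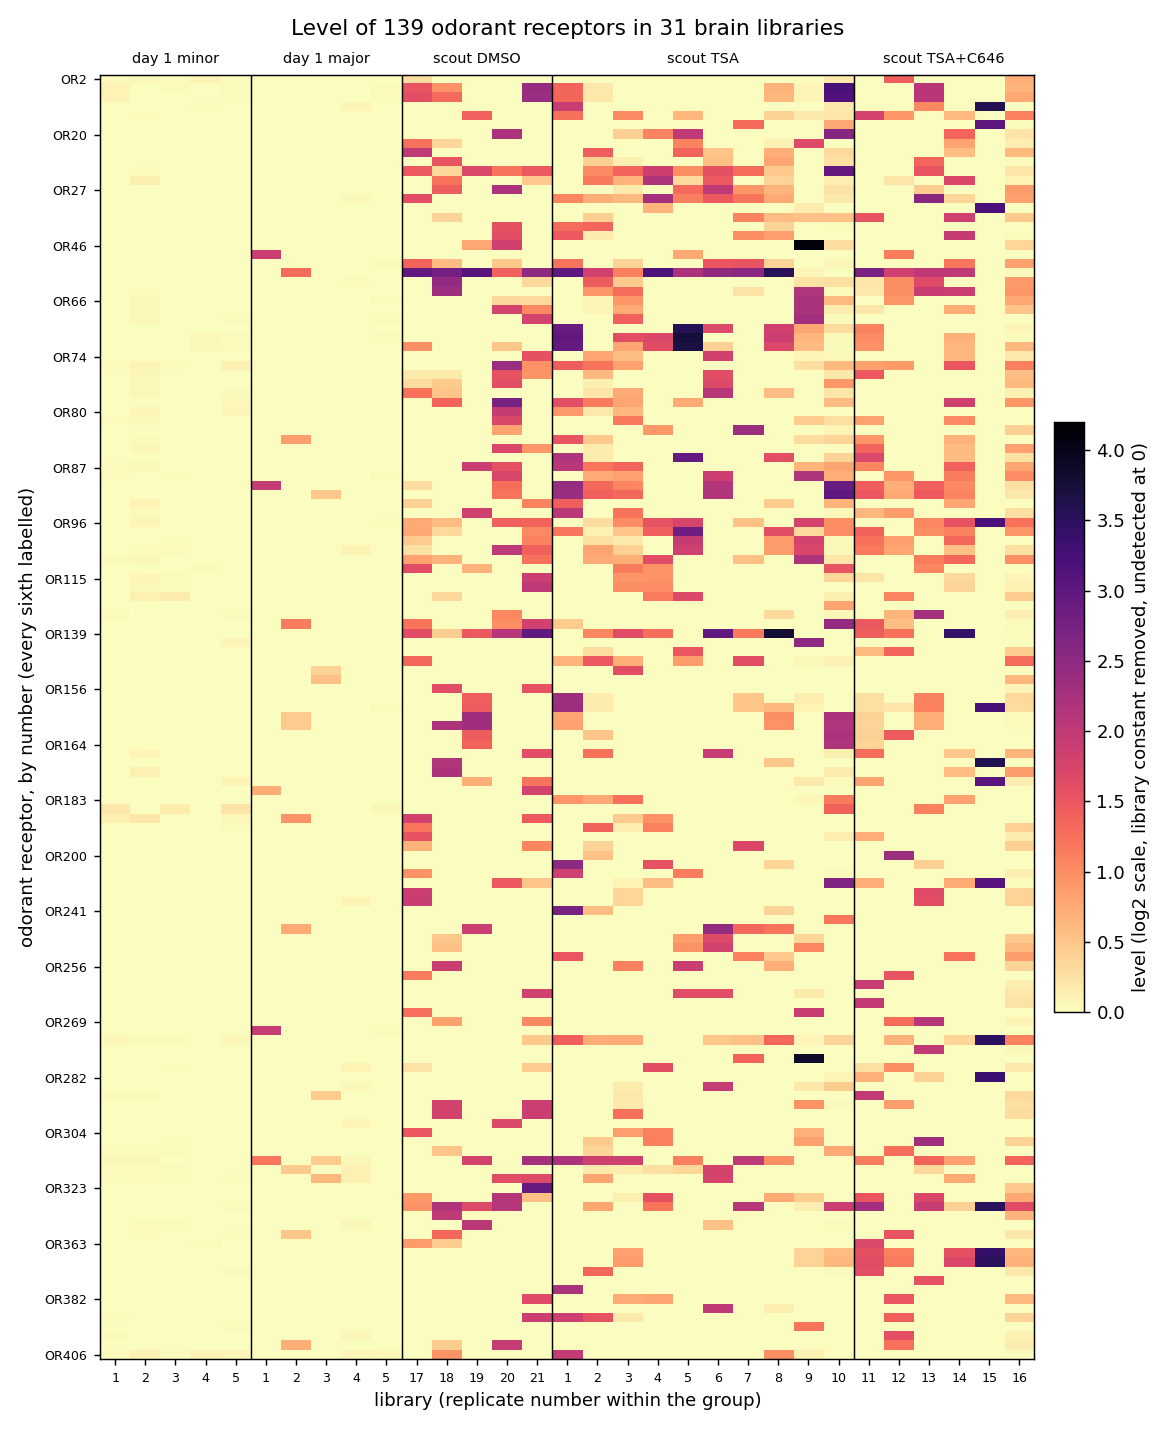
Level of each of the 139 odorant receptors (rows, in order of their number) in each of the 31 brain libraries (columns, grouped by caste and treatment), on a log2 scale with undetected receptors at 0. Dark cells lie scattered over the scout columns, TSA+C646 library 15 has 13 dark cells and no pale ones, and the day 1 columns are nearly blank apart from a few cells in the majors.

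The threshold cut through a continuous range. Just inside it lay Cflo_OR192, Cflo_OR83 and Cflo_OR92, at highest deposited values of 1.501, 1.504 and 1.505. Just outside lay Cflo_OR47, Cflo_OR86 and Cflo_OR364, at 1.492, 1.489 and 1.483. Of the other chemosensory families, 28 of 63 gustatory receptors (44.4%) and 9 of 31 ionotropic receptors (29.0%) passed the same threshold. Among all 406 odorant receptors, 63 were detected in no library.

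Cflo_OR61 was detected in more scouts than any other of the 139. In DMSO scouts 17 to 21 its levels were 2.95, 2.78, 3.05, 1.40 and 2.51. In TSA scouts the lowest level was 0, the median 2.35 and the highest 3.54. With C646 added the lowest was 0, the median 1.93 and the highest 2.71. It was thus detected in 19 of 21 scouts, and the groups overlapped. The missing brains were TSA 10 and TSA+C646 15, and the levels in TSA 9 and TSA+C646 16 were 0.067 and 0.039. These are the 4 libraries whose constants lay farthest from 0. Tests further on are also given without TSA 9 and 10 or without TSA+C646 15 and 16, and no test leaves out all 4. On day 1 the receptor was detected in major 2, at 1.28, and in none of the other 9 brains.

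Cflo_OR139 and Cflo_OR24 were the other receptors detected in all 5 DMSO scouts. For Cflo_OR139 the DMSO levels were 1.62, 0.442, 1.49, 2.09 and 2.96. It was detected in 6 of 10 TSA scouts, with a median of 1.11 and a highest level of 3.78, and in 4 of 6 scouts given both drugs, with a highest level of 3.42. It was detected in no day 1 brain. Cflo_OR24 stood at 1.47, 0.329, 1.70, 1.23 and 1.48 in DMSO scouts. With TSA it was detected in 8 of 10 brains, with a median of 1.16 and a highest level of 2.95. With both drugs it was detected in 2 of 6 brains, at 1.54 and 0.208. The levels of the TSA group and of the group with both drugs overlapped.

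Cflo_OR331 was detected in 4 of 5 DMSO scouts, with a median level of 1.68. In TSA scouts it was detected in 5 of 10, with a median of 0.07, and with both drugs in 5 of 6, with a median of 1.79. Its highest level, 3.52, lay in TSA+C646 library 15. Cflo_OR96 was detected in 15 scouts, 4 of 5 with DMSO, 7 of 10 with TSA and 4 of 6 with both, at medians of 0.74, 0.77 and 1.14. Cflo_OR313 was detected in 2 of 5, 6 of 10 and 4 of 6 scouts, with highest levels of 2.26, 2.204 and 1.37.

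The other 6 of the 12 receptors detected in the most libraries were seen in 10 to 15 scouts each. The last places were tied at 15 libraries and given by the highest level, so Cflo_OR101, with 12 scouts and 3 day 1 brains, was left out. Cflo_OR97 was detected in 15 scouts and in no day 1 brain. Cflo_OR274 was detected in 1 of 5 DMSO scouts, 8 of 10 TSA scouts and 4 of 6 with both drugs, mostly at low levels, with medians of 0, 0.53 and 0.52. Cflo_OR73 was detected in 2, 8 and 3 brains of those groups, at up to 0.98, 3.68 and 0.96. Cflo_OR100 and Cflo_OR75 were detected in 13 and 11 scouts, and each was highest in DMSO brain 20, at 2.03 and 2.38. Cflo_OR3 was detected in 10 scouts and was highest in TSA brain 10, at 3.20.

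**Figure D3:**
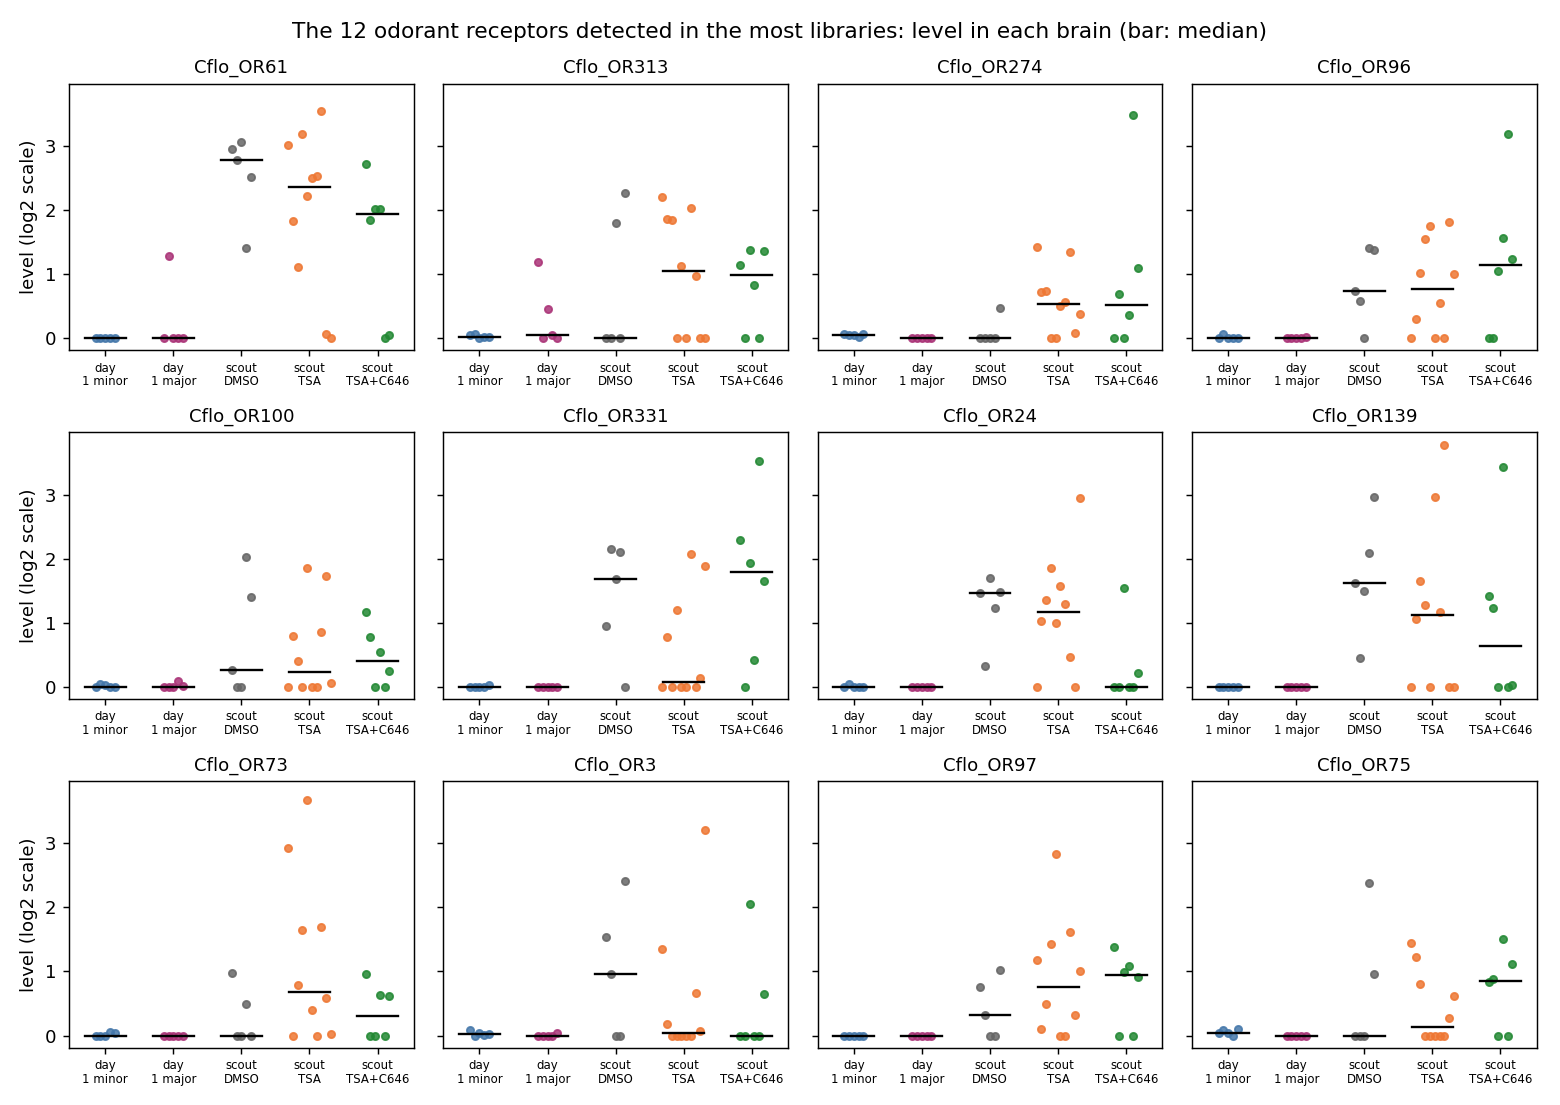
Level on the log2 scale (vertical axis) of the 12 odorant receptors detected in the most libraries (ties by highest level), 1 panel each, with 1 point per brain and a bar at the median of each group. Cflo_OR61 has scout medians of 2.78, 2.35 and 1.93, and many panels have scout points both at 0 and above 1. The day 1 points lie at or near 0 except for a few majors.

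At the other end were receptors with a high level in a single brain. Cflo_OR276 reached 3.87 in TSA brain 9 and 1.37 in TSA brain 7, and was detected in no other library. Cflo_OR323 stood at 2.93 in DMSO brain 21 and otherwise only at 0.469 in TSA+C646 library 16. Cflo_OR141 stood at 2.497 in TSA brain 9 and at 0.067 in day 1 minor 5. Cflo_OR200 stood at 2.36 in TSA+C646 brain 12 and at 0.531 in TSA brain 2. TSA brain 9 also held the highest level of any of the 139, that of Cflo_OR46 at 4.13. Of the 22 receptors that reached a level of 3 or more, 12 had their highest level in TSA+C646 library 15, the library with the fewest identifiers detected.

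Cflo_ORco, the marker of olfactory sensory neurons used here, was weak in the scouts. It was detected in 2 of 5 DMSO scouts at up to 0.92, in 6 of 10 TSA scouts at up to 0.94 and in 3 of 6 scouts with both drugs at up to 0.85. On day 1 it was detected in major 3, at 2.21, and in none of the 5 minors. The label of these 139 identifiers as odorant receptors rests on their names, and the files give no other marker by which the cells that carry them could be named.

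The number of receptors per brain overlapped between the 3 scout groups. Of the 406 odorant receptors, DMSO scouts detected 31 to 58 (48.4 ± 11.3, SD, n = 5), TSA scouts 38 to 153 (70.6 ± 36.7, n = 10) and scouts with both drugs 13 to 149 (65.2 ± 45.4, n = 6). The highest counts, 153 in TSA brain 10 and 149 in TSA+C646 brain 16, lay in the libraries that detected the most identifiers of any kind. The part of this in the counts was not tested. Of the 139 receptors, 61 reached 1.5 in at least 1 DMSO scout, 86 in a TSA scout and 67 in a scout with both drugs, and 18 did so in all 3 groups. The groups hold 5, 10 and 6 brains, so these numbers do not share a base. On average 1 of the 139 was detected in 24.6% of the DMSO scouts, 30.8% of the TSA scouts and 32.7% of those with both drugs. For any identifier the shares were 45.7%, 52.2% and 45.0%, and over all 406 odorant receptors 11.9%, 17.4% and 16.1%. The 139 were chosen on these same values. The share with both drugs rests much on library 16, which detected 97 of the 139, while library 15 detected 13.

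**Figure D4:**
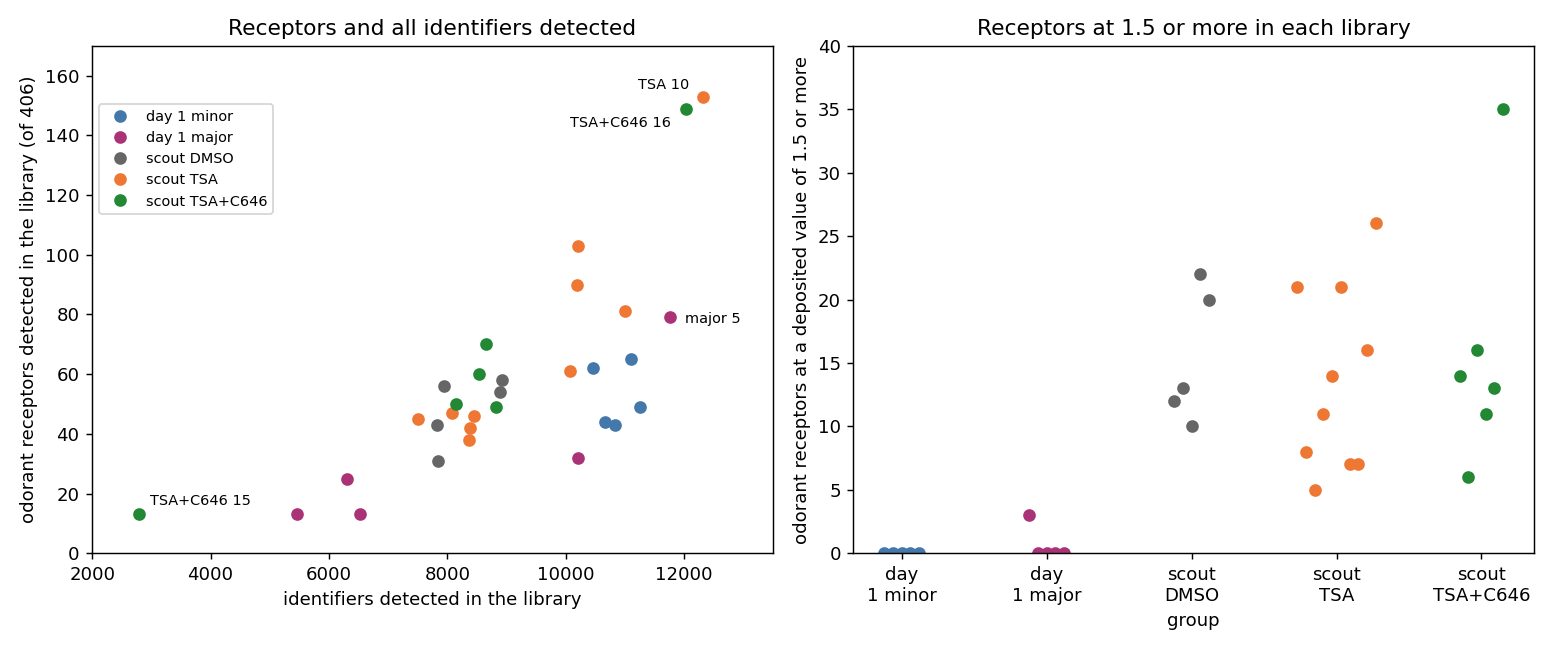
Left, odorant receptors detected per library (vertical axis, of 406) against all identifiers detected (horizontal axis), and right, the number of receptors at a deposited value of 1.5 or more in each library by group, with 1 point per brain in both. Libraries with more identifiers tend to show more receptors, TSA 10 (153) and TSA+C646 16 (149) stand above the rest, and 9 of the 10 day 1 points on the right are at 0.

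TSA library 10 and TSA+C646 libraries 15 and 16 each weigh on the choice of receptors. Through TSA library 10 alone 8 receptors passed the threshold, and through libraries 15 and 16 alone 3 each. In TSA library 10, 26 receptors were at a deposited value of 1.5 or more and 14 at a level of 1.5 or more. In library 16, 35 receptors were at a deposited value of 1.5 or more, but only 1 was at a level of 1.5 once the constant was removed. In library 15 all 13 detected receptors were among the 139, and each was at 1.5 or more. No identifier detected in library 15 had a level under 1.63, so any receptor detected there had a level above 1.5. After the constants were removed, 126 of the 139 still reached 1.5 in at least 1 scout.

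Whether the drugs moved receptor RNA was asked with limma over every gene of the scout table that had a mean deposited value of at least 1. That left 4899 genes, of which 6 were among the 139, namely Cflo_OR24, Cflo_OR61, Cflo_OR96, Cflo_OR139, Cflo_OR313 and Cflo_OR331. For TSA against DMSO, 0 of the 6 were called at an adjusted p under 0.05, beside a background of 0% of all genes tested. The largest differences of deposited means were -0.60 (SE 0.54) for Cflo_OR331, from 1.37 to 0.77, and -0.38 (SE 0.49) for Cflo_OR61, from 2.52 to 2.15. Higher with TSA were Cflo_OR313 by 0.36 (SE 0.47) and Cflo_OR96 by 0.15 (SE 0.45). The limma adjusted p was 0.995 for each, and 0 of the 6 had an unadjusted p under 0.05, as 133 genes higher and 27 lower did among all 4899. Without TSA libraries 9 and 10 the difference of Cflo_OR61 was -0.0132 (SE 0.44) and that of Cflo_OR96 -0.12.

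For TSA with C646 against TSA alone, 0 of the 6 receptors were called, beside 0% of all genes. Cflo_OR331 stood at a deposited mean of 1.73 against 0.77, a difference of 0.96 (SE 0.51), and Cflo_OR24 at 0.44 against 1.31, a difference of -0.86 (SE 0.42). Cflo_OR61 differed by -0.52 (SE 0.46) and Cflo_OR96 by 0.32 (SE 0.42). The limma adjusted p was 0.991 for these 4. Among all 4899 genes, 70 were higher and 104 lower at an unadjusted p under 0.05, with no receptor of the 6 among them. Without libraries 15 and 16 the difference of Cflo_OR61 was -0.000104 (SE 0.48), that of Cflo_OR331 0.39 (SE 0.55) and that of Cflo_OR96 -0.28.

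The comparison of both drugs with DMSO shares the DMSO brains with the first comparison and the TSA+C646 brains with the second. It called 0 of the 6 receptors, beside 0% of all genes. Cflo_OR61 stood at 1.63 against 2.52, a difference of -0.90 (SE 0.54), and Cflo_OR24 differed by -0.78 (SE 0.49). Higher with both drugs were Cflo_OR96 by 0.47 (SE 0.49) and Cflo_OR331 by 0.36 (SE 0.60). The limma adjusted p was 0.999 for each, and 114 genes were higher and 36 lower at an unadjusted p under 0.05 among all 4899. Without libraries 15 and 16 both of these turned, to -0.13 for Cflo_OR96 and -0.21 for Cflo_OR331, and the difference of Cflo_OR61 was -0.38 (SE 0.55). The median difference of the 6 was -0.13, -0.17 and -0.17 in the 3 comparisons, beside 0.14, -0.10 and 0.05 over all genes tested. With every identifier tested and no filter on low values, limma called 0 of the 139 in each of the 3 comparisons, beside 0% of all identifiers. In no scout comparison did any of the 139 receptors separate the groups without overlap. Among all identifiers, 0.0165% were higher and 0.0331% lower in every TSA scout than in every DMSO scout, 0.0165% were higher and 0.149% lower in every scout with both drugs than in every DMSO scout, and 0% separated both drugs from TSA.

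Colony and age differed between the groups. SB2 is the colony that gave both DMSO and TSA brains, and within it Cflo_OR61 had a mean level of 2.93 ± 0.14 (SD, n = 3) with DMSO and of 1.49 ± 1.27 (n = 4, 0 to 3.02) with TSA. The level of 0 was that of TSA library 10, with its constant of 0.840. Within SB2 the ages differed too, at day 78 with DMSO and days 68 to 70 with TSA. The groups overlapped, although the highest DMSO level of 3.05 lay above every TSA brain of that colony. Limma on SB2 alone called 0 of the 6 receptors tested, beside 1 of 4899 genes (0.0204%).

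Some receptors outside the rule for named genes caught the eye after their values were seen. Their values and fits are descriptions, since the same values picked them. No fit of these receptors left out library 15, where no detected level lay under 1.63. Cflo_OR365 and Cflo_OR366 were detected in 0 of 5 DMSO scouts, 3 of 10 TSA scouts and 5 of 6 scouts with both drugs. For Cflo_OR366 the levels with both drugs were 1.65, 1.16, 0, 1.70, 3.52 and 0.675 in libraries 11 to 16. With TSA alone the median was 0 and the highest level 0.88. With undetected identifiers at 0 and no filter, the group with both drugs was higher than TSA by 1.26 (SE 0.34, limma adjusted p = 0.840) and than DMSO by 1.45 (SE 0.40, limma adjusted p = 0.917). Cflo_OR72 was likewise detected in 0 of 5 DMSO scouts, and in 7 of 10 TSA scouts at up to 3.74, a difference of 1.26 (SE 0.52, limma adjusted p = 0.943). With both drugs it was detected in 3 of 6 scouts, at a mean level of 0.28. Its neighbour in number, Cflo_OR73, was detected in 2 of 5 DMSO scouts at up to 0.98. Cflo_OR156 was detected in 2 of 5 DMSO scouts at up to 1.63 and in 0 of 10 TSA scouts, a difference of -0.64 (SE 0.21, limma adjusted p = 0.943). On the deposited values without a filter the difference was -0.47 (SE 0.25, limma adjusted p = 0.749). With both drugs it was detected in library 16 only, and the mean level of the group was 0.0127.

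Receptors with consecutive numbers tended to be detected in the same brains. Among the 139 there are 64 pairs of consecutive numbers, and 92 receptors belong to at least 1 of them. Such a pair shared a median of 40.8% of the scouts in which either was detected, against 18.2% for 9301 pairs more than 5 numbers apart. Pearson's r over the 21 scouts was 0.8 or more in 10 of 64 consecutive pairs (15.6%) and in 65 of the distant pairs (0.699%). These correlations are descriptions. Points share a library and its depth, and many lie at 0 for both receptors. Numbers follow each other in the table as well, since 62.7% of successive receptor lines in the scout table differ by 1. Their places in the genome were not analysed here.

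The tightest pairs shared nearly all of their brains. Cflo_OR3 and Cflo_OR4 were detected in the same 10 scouts, with r of 0.996. Cflo_OR4 stood at 1.61, 1.31, 0, 0 and 2.39 in the DMSO scouts, where Cflo_OR3 stood at 1.54, 0.960, 0, 0 and 2.41. Cflo_OR365 and Cflo_OR366 were detected in the same 8 scouts. Cflo_OR161 and Cflo_OR162 shared 7 of 8 scouts, and the exception was DMSO brain 18, where Cflo_OR162 stood at 2.19 and Cflo_OR161 at 0. Cflo_OR90 and Cflo_OR91 shared 11 of 12, and Cflo_OR72 and Cflo_OR73 shared 10 of 13. Whether shared reads between near-identical copies give these pairs was not tested. By contrast Cflo_OR61 and Cflo_OR139, distant in number, shared 15 of 19 scouts but with r of 0.480.

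**Figure D5:**
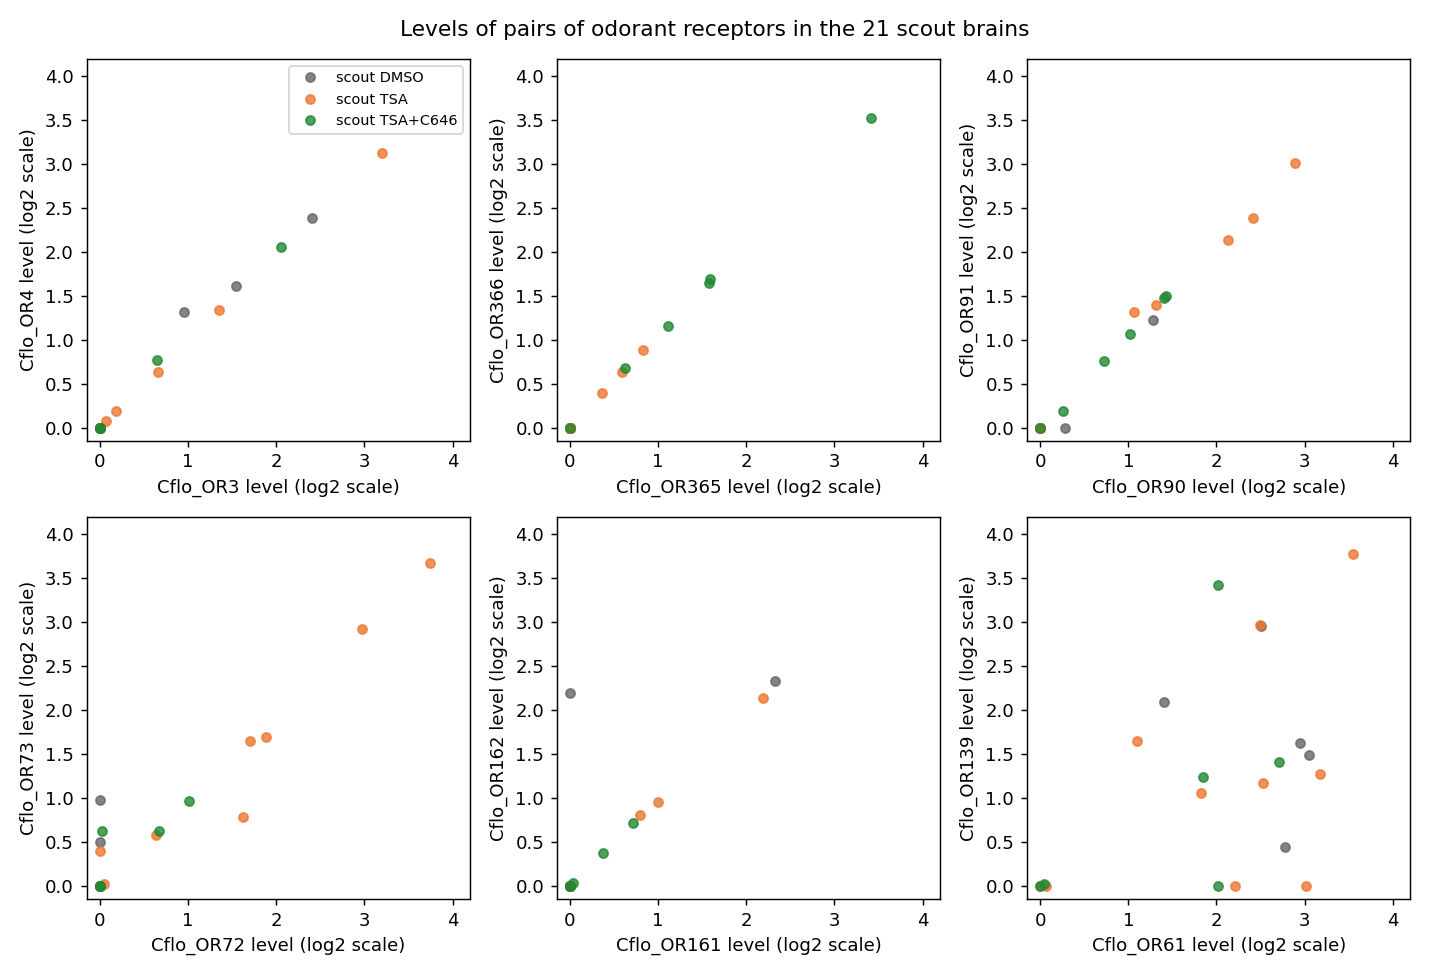
Levels of 6 pairs of odorant receptors against each other (both axes on the log2 scale), with 1 point for each of the 21 scout brains, coloured by treatment. Cflo_OR3 with Cflo_OR4 and Cflo_OR365 with Cflo_OR366 lie along a line (r of 0.996 in the first), while Cflo_OR61 with Cflo_OR139 spreads widely (r of 0.480).

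Day 1 brains held little signal of these receptors. Only 3 of the 139 reached a deposited value of 1.5 on day 1, beside 30.7% of all identifiers, and all 3 did so in major 1. These were Cflo_OR51, Cflo_OR90 and Cflo_OR272, at levels of 1.89, 1.94 and 1.92. Cflo_OR272 was detected in no scout. In all, 89 of the 139 were detected in at least 1 day 1 brain and 50 in none, and 6 were detected in more than 5 of the 10, beside 54.9% of all identifiers. Of the 89, 63 stayed under a level of 0.1 in every day 1 brain. The highest level of any of the 139 was 0.096 to 0.226 in the 5 minors and 0.0607 to 1.94 in the 5 majors.

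By caste, minors detected 43 to 65 of the 406 odorant receptors (52.6 ± 10.3, SD, n = 5) and majors 13 to 79 (32.4 ± 27.3, n = 5). Receptor levels of 0.1 or more were seen for 7 of the 139 in a minor and for 20 in a major. The lowest detected level of a library differed too, at a mean of 0.0176 in minors and 0.279 in majors. It was 0.551, 0.415 and 0.382 in majors 1 to 3, so every receptor detected there counts at 0.1 or more. The counts at 0.1 or more thus do not compare the castes. The part of these limits in the other caste differences was not tested. Cflo_OR313 and Cflo_OR317 had the widest day 1 signal, each in 8 of 10 brains. Cflo_OR313 stood at 1.18, 0, 0.455, 0.052 and 0.001 in majors 1 to 5 and at 0.049, 0.054, 0, 0.009 and 0.011 in minors 1 to 5. Cflo_OR317 stood at 0, 0, 0.635, 0.108 and 0.003 in the majors and at 0.029, 0.041, 0.021, 0.011 and 0.027 in the minors. For both receptors the castes overlapped. The highest value of Cflo_OR313 lay in major 1 and that of Cflo_OR317 in major 3. In major 3 their levels stood above only 7.57% and 22.7% of the identifiers detected in that library.

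The caste comparison ran with limma over the 3694 genes of the day 1 table that had a mean deposited value of at least 1. None of the 139 receptors passed that filter, so 0 were tested, beside 2 calls among all genes (0.0541%). Without the filter, 0 of the 139 were called, beside 0.0165% of all identifiers. At an unadjusted p under 0.05, 63 of the 139 were higher in majors, beside 2446 of all 18130 identifiers (13.5%). Among the 63 were receptors detected in no day 1 brain, such as Cflo_OR156 (limma unadjusted p = 0.0147). Their differences rest on the tied values at the bottom of the libraries. The number 63 did not hold when the constants were removed and undetected identifiers set to 0, which left 89 receptors to test. Then 0 of the 89 detected receptors were higher in majors at an unadjusted p under 0.05 and 3 were lower, beside 2.32% and 9.17% of all identifiers detected on day 1. The smallest limma adjusted p of a receptor was 0.154 in the first setting, a value that Cflo_OR156 also had, and 0.292 in the second.

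Cflo_OR2 and Cflo_OR274 were lower in every major than in every minor, as 1.74% of all identifiers were, and no receptor was higher in every major (0.419% of all identifiers). Cflo_OR2 stood at 0.033, 0.063, 0.028, 0.096 and 0.046 in minors 1 to 5, at 0.005 in major 5 and at 0 in majors 1 to 4. Cflo_OR274 stood at 0.057, 0.040, 0.040, 0.012 and 0.061 in the minors, at 0.004 in major 5 and at 0 in the others. Both were named after their values were seen, and neither was called (limma adjusted p = 0.292 and 0.299). In the minors Cflo_OR2 stood above 1.81% to 15.6% of the identifiers detected in the same library, and Cflo_OR274 above 1.06% to 9.8%. The 15.6% was that of minor 4, where Cflo_OR2 stood at 0.096 and the lowest detected level was 0.00566. The lowest detected levels of majors 1 to 3 were 0.551, 0.415 and 0.382, so a receptor at the minors' level would stand at 0 there. The lowest was 0.0482 in major 4, within the range of the minors, and 6.3e-10 in major 5. The separation therefore cannot tell a caste difference from the limits of the libraries.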

How the data were processed

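The submitters' processing notes name bcl2fastq 2.0, Bowtie2 and Cufflinks 2.2.1. Neither a genome build nor an annotation is given in the sources used here. The unit of the deposited values was taken as log2, a base that the sources used here do not state. Sums back-transformed at base 2 were 1920675 to 1980287 per day 1 library and 278386 to 676573 per scout library. They do not settle the base. In both tables each library followed 1 shared distribution plus a constant (largest deviation 1.00002e-10), and bottom-tied identifiers rose in line order, from which detection was recovered, in a step tested on simulated data. Where the constant is under 0 and no rising run shows, as in day 1 minor 4, detection is a lower bound.

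Tests used limma 3.58.1 (R 4.3.3, variance trend, Benjamini-Hochberg over the table, threshold 0.05). Labels call each scout library a single brain, and each day 1 library is taken as a brain, so p-values measure the spread between libraries. Receptors, lists and tests were chosen with earlier results of these data known. Named were the 12 receptors detected in the most libraries (ties by highest level), the 2 highest and 2 lowest tested differences per comparison, any called receptor, the 3 nearest either side of the threshold, the co-receptor, and 4 with a high level but detected in 1 or 2 libraries. The table of subsamples holds 0 of the Cflo_OR identifiers among 17064 and was not used. No sequences are shown, as 0 receptors matched the RefSeq table of 14020 genes. Alternatives covered pseudocounts, filters, normalization, colonies, doses and left-out libraries.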

Additional observations from a re-analysis of the deposited data

Results flagged for a closer look

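In 6 of 60 groups of values checked, 1 library stood farther from the others than Dixon's 95% critical value, and chance gives about 1 in 20. Among day 1 majors, major 5 detected the most odorant receptors, 79, and the most of the 139 receptors, 39, and it also detected the most identifiers, 11768. Major 1 held 3 receptors at 1.5 or more, and the other majors held 0. Among scouts with both drugs, library 16 had 35 receptors at a deposited value of 1.5 or more, and library 15 had a median level of 3.36 over its detected receptors, the highest of the 6. Cflo_OR274 stood at 3.48 in library 15, above the other scouts with both drugs.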

How the results depend on the processing

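The number of receptors past the threshold was 139, and it was 238 at a minimum of 1, 75 at a minimum of 2 and 72 when 2 libraries had to reach 1.5. It was 129 after removal of the constants, 116 without TSA 9 and 10 and TSA+C646 15 and 16 (chosen after seeing the data), and 131 to 139 when each library was left out in turn.

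In the 4 comparisons 0 receptors were called under each alternative that tested any. A minimum mean of 3 left 0 receptors to test in scouts. Replicate numbers of day 1 majors and minors correlated at -0.117 to 0.166 and do not pair the brains; with the replicate block 0 receptors were called, as without it.

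Of the named receptors' differences, none significant, some changed sign; the cause was not tested. For TSA against DMSO, Cflo_OR24 went from 0.08 to -0.11 with a pseudocount of 0.1, -0.0876 with constants removed and undetected identifiers at 0 (with or without the filter), -0.0823 after quantile normalization, -0.13 without TSA 9 and 10, and -0.19 to 0.23 with 1 library left out. Cflo_OR96 went from 0.15 to -0.0244 with constants removed (with or without the filter), -0.0159 after quantile normalization, -0.12 without TSA 9 and 10, and -0.0256 to 0.281 with 1 library left out. For both drugs against TSA, Cflo_OR96 went from 0.32 to -0.0236 in colony SB1 and -0.28 without libraries 15 and 16. Cflo_OR139 went from -0.11 to 0.41 in colony SB4, 0.18 without libraries 15 and 16, and -0.55 to 0.16 with 1 library left out. Cflo_OR313 went from -0.23 to 0.70 in colony SB1. For both drugs against DMSO, Cflo_OR313 went from 0.13 to -0.0315 with constants removed (with or without the filter), -0.0385 after quantile normalization, and -0.14 to 0.49 with 1 library left out. Without libraries 15 and 16, Cflo_OR96 went from 0.47 to -0.13 and Cflo_OR331 from 0.36 to -0.21.

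The limma adjusted p of the 6 tested scout receptors ran from 0.749 to 1, 0.632 to 1.00 and 0.803 to 1 over the alternatives. Depth is unknown, so an undetected receptor is not shown to be absent. Detection in the subsamples of a further brain could not be examined, as that table lists no odorant receptor.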
